A study of Mus musculus with 15 samples.

Results

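The Zfp genes are the mouse genes whose symbol is Zfp followed by a number, a naming series for zinc finger proteins, and 255 of the 9666 genes in the deposited table carried such a symbol. RNA had been sequenced from isolated ventricular cardiomyocytes of wild-type C57BL/6 mice, with 4 libraries of postnatal day 1 (P1), 4 of postnatal day 3 (P3) and 7 of adults aged 8 to 12 weeks. The labels name no transgene, Cre or treatment in any group, and they do not say whether each library came from its own animal, from pooled hearts or from 1 preparation. The spread between libraries, which is what every p-value here measures, may therefore be technical. The design sets the muscle cells of newborn hearts, which can still regenerate, beside those of the adult heart, and asks which genes separate them.

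Most Zfp proteins hold C2H2 zinc fingers, short loops in which a pair of cysteines and a pair of histidines grip a zinc ion and the loop reads a few bases of DNA. Many of them also carry a KRAB box, a repressor module that recruits Trim28 and through it histone methylation and deacetylation, and these KRAB proteins silence retroelements and guard imprinted loci. A small separate group, the TIS11 proteins Zfp36, Zfp36l1 and Zfp36l2, has CCCH fingers that bind AU-rich elements in messenger RNA and bring in the CCR4-NOT deadenylase, so that the bound transcript is degraded. Other members act in ribosome rescue, splicing, mitosis and chromatin, and the shared name therefore says little about a shared task.

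The family was sorted by its own coding sequences. Of the 255 genes, 254 matched a GENCODE M21 gene of the mm10 build by symbol, and the coding sequences put 137 in the class with a KRAB box and C2H2 fingers, 110 in the class with C2H2 fingers only and 4 in the class with CCCH fingers (Zfp36, Zfp36l1, Zfp36l2 and Zfp330). Zfp703, Zfp839 and Zfp935 met neither pattern, and Zfp33b had no gene model under its symbol. The KRAB class had a median of 12 C2H2 fingers per protein, with a range of 2 to 30, and the class without KRAB a median of 7, with a range of 1 to 36. The class rules are approximate. A KRAB box was called from at least 13 of 40 residues identical to a consensus, and fingers from the spacing of cysteines and histidines alone. A match to the spacing, such as that of Zfp330, need not be a true finger of that type.

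The coding stretches of the first finger show how CCCH and C2H2 fingers differ, and they do not show the KRAB box. They are printed because the largest rises of the family came from Zfp568 at P1 and Zfp36l2 at P3. The first 3 are the first CCCH finger of the TIS11 genes, coding bases 301 to 360 of Zfp36, 358 to 417 of Zfp36l1 and 481 to 540 of Zfp36l2. The last is the first of 11 C2H2 fingers of the KRAB gene Zfp568 with the linker that follows it, coding bases 1093 to 1176. Capitals mark the codons of the zinc-binding cysteines and histidines.
Zfp36: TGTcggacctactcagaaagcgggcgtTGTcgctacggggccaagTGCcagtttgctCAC
Zfp36l1: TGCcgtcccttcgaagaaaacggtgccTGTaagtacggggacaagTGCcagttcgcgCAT
Zfp36l2: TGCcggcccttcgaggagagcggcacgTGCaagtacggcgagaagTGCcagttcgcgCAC
Zfp568: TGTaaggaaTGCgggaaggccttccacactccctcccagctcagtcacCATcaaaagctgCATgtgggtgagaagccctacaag
Over these 60 bases Zfp36l1 and Zfp36l2 were identical at 81.7% of positions, Zfp36 and Zfp36l1 at 70%, and Zfp36 and Zfp36l2 at 66.7%.

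No promoter sequence was available for Zfp568 or Zfp36l2. Promoters are printed for the 3 genes called lower in neonatal libraries and for a pair of other genes with very large rises, so that both directions can be read side by side. Each is the 200 bases before the RefSeq start on the coding strand (GRCm38.p6), at chr17:21566778-21566977 for Zfp948 (+ strand), chr2:164911751-164911950 for Zfp335 (- strand), chr2:120563860-120564059 for Zfp106 (- strand), chr2:177464542-177464741 for Zfp970 (+ strand) and chr9:121759833-121760032 for Zfp651 (+ strand). Capitals mark matches, on either strand, to the GC box, to the CCAAT box or to the cyclic AMP response element. The GC box was searched as GGGCGG. The CCAAT box was searched by the letters of its name. The cyclic AMP response element was searched as TGACGTCA. The TATA box (TATAAA), the ETS site (CCGGAAG), the ZFP143 core (ACTACAA), the YY1 core (AAGATGGC) and the NRF1 core (CGCATGCG) were searched as well and had no match in these windows.
Zfp948: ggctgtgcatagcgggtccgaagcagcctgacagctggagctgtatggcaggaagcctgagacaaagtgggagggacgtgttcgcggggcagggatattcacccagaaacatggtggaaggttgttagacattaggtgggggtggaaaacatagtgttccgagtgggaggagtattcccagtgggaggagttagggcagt
Zfp335: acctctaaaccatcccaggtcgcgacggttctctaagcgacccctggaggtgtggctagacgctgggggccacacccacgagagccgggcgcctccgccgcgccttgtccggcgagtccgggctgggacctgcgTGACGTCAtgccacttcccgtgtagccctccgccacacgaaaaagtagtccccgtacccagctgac
Zfp106: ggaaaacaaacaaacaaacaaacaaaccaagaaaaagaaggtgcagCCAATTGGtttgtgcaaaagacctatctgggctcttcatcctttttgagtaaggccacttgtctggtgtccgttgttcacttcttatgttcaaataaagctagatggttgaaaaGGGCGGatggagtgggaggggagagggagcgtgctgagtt
Zfp970: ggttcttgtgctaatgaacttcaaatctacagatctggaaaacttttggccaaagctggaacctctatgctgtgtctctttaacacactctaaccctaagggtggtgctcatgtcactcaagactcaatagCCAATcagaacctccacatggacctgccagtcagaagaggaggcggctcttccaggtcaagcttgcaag
Zfp651: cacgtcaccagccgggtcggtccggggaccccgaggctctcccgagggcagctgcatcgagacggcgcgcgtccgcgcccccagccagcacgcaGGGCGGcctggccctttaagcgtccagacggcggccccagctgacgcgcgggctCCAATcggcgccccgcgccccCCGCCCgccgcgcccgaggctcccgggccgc
The 2 CCAAT matches of Zfp106 lie on opposite strands and overlap. Zfp335 had the cyclic AMP response element and 20 CpG pairs, Zfp651 had 32 CpG pairs, 2 GC boxes and 1 CCAAT box, Zfp970 had 1 CpG pair and 1 CCAAT box, Zfp106 had 1 GC box beside its CCAAT matches, and Zfp948 had 6 CpG pairs and no match. A match is a string of letters and shows no binding. RefSeq promoters were matched for 212 members, and over windows of 300 bases the GC box was in 48.1% of them, against 68.3% of the 7613 table genes with a promoter and 35.9% of all 27025 promoters. The CCAAT box was in 50.9% of member promoters, 57% in the KRAB class and 42.4% in the C2H2 class without KRAB, against 39.3% of table genes and 37.9% of all promoters. The cyclic AMP response element was in 2.83% of members, 3.57% of table genes and 1.88% of all promoters.

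Values are RPKM as deposited, that is reads scaled to gene length and library size, and differences are log2 differences of mean log2(RPKM + 0.5). Summed RPKM per library ran from 145050 to 280112 in adults, from 274001 to 309909 in P1 and from 228162 to 321035 in P3. The top adult sum came from replicate 4 alone, and the next was 195003. Libraries also differed in cell markers. The summed level of 11 cardiomyocyte genes was 18600 to 35300 RPKM in adults, 5890 to 13900 in P1 and 775 to 6500 in P3, and with limma 7 and 11 of the 11 were lower in P1 and P3. For fibroblast genes, 4 of 9 were in the table, and their sum was 0.917 to 68.5 RPKM in adults, 158 to 1330 in P1 and 367 to 791 in P3. For endothelial genes, 7 of 10 were in the table, at 2.08 to 170 RPKM in adults, 183 to 437 in P1 and 621 to 1470 in P3. For mural genes, 4 of 8 were in the table, at 31.8 to 120 RPKM in adults, 121 to 513 in P1 and 437 to 720 in P3, but the 4 differed in direction: the median gene went from 21.6 RPKM in adults to 6.93 and 12.9, 1 was called higher at P1 and 2 at P3, and at an unadjusted p under 0.05 (limma) 2 were higher and 2 lower at P1. P1 replicate 1 stood apart within its group, with a fibroblast sum of 1330 RPKM against 158 to 193 in the other P1 libraries and the lowest cardiomyocyte sum, 5890. P3 replicate 1 had the highest cardiomyocyte sum of its group, 6500 against 775 to 1540. In such bulk libraries fewer cells of a type and less RNA per cell cannot be told apart, and the part of these marker differences in the Zfp results was not tested.

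In RPKM as deposited, Zfp transcripts were scarce in adult libraries and more abundant in neonatal ones, a difference that depends on the scaling described below. The median member had a mean of 0.871 RPKM in adults, 2.73 in P1 and 3.13 in P3, and the median over all genes of the table moved alike, from 2.94 to 8.73 and 9.46 RPKM. By library, the median over members was 0.596 to 1.16 RPKM in adults, 2.43 to 2.89 in P1 and 2.65 to 3.46 in P3, so that no adult library reached a neonatal one. A mean of at least 1 RPKM was reached by 118 members in adults, 218 in P1 and 224 in P3, and at least 10 RPKM by 4, 23 and 28. Depth limits the lower end: reads could be recovered for 225 members, the median member had 15 reads in its lowest library, and 61 had under 10 reads in some library. For some members, such as Zfp60, Zfp85 and Zfp942, most recovered numbers were multiples of a larger step. A recovered unit may there be less than 1 read, so reads may be overstated and further members with few reads missed.

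Which Zfp genes dominate differed between the ages. In adults the highest was Zfp106, an RNA-binding protein whose loss in mice causes neuromuscular degeneration, at 46.7 RPKM ± 10.7 (SD, n = 7). It was followed by Zfp36 at 21.5, the ubiquitin ligase Zfp91 at 12.9, Zfp706 at 11.6 and the BTB-domain protein Zfp651 at 9.04 RPKM. At P1 the highest was Zfp207, a microtubule-binding protein that loads the checkpoint factor Bub3 at kinetochores, at 33.2 RPKM ± 6.9 (SD, n = 4), before Zfp36l1, Zfp36, Zfp106 and Zfp568 at 28.1, 27.9, 26.5 and 26.2 RPKM. These 5 means at P1 lie within 1 SD of one another for neighbours in the order. At P3 Zfp207 was again highest at 46.3 RPKM ± 7.4 (SD, n = 4), before Zfp36 at 39.2, Zfp36l1 at 35.6, Zfp146 at 30.5 and Zfp91 at 29.2 RPKM.

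**Figure D1:**
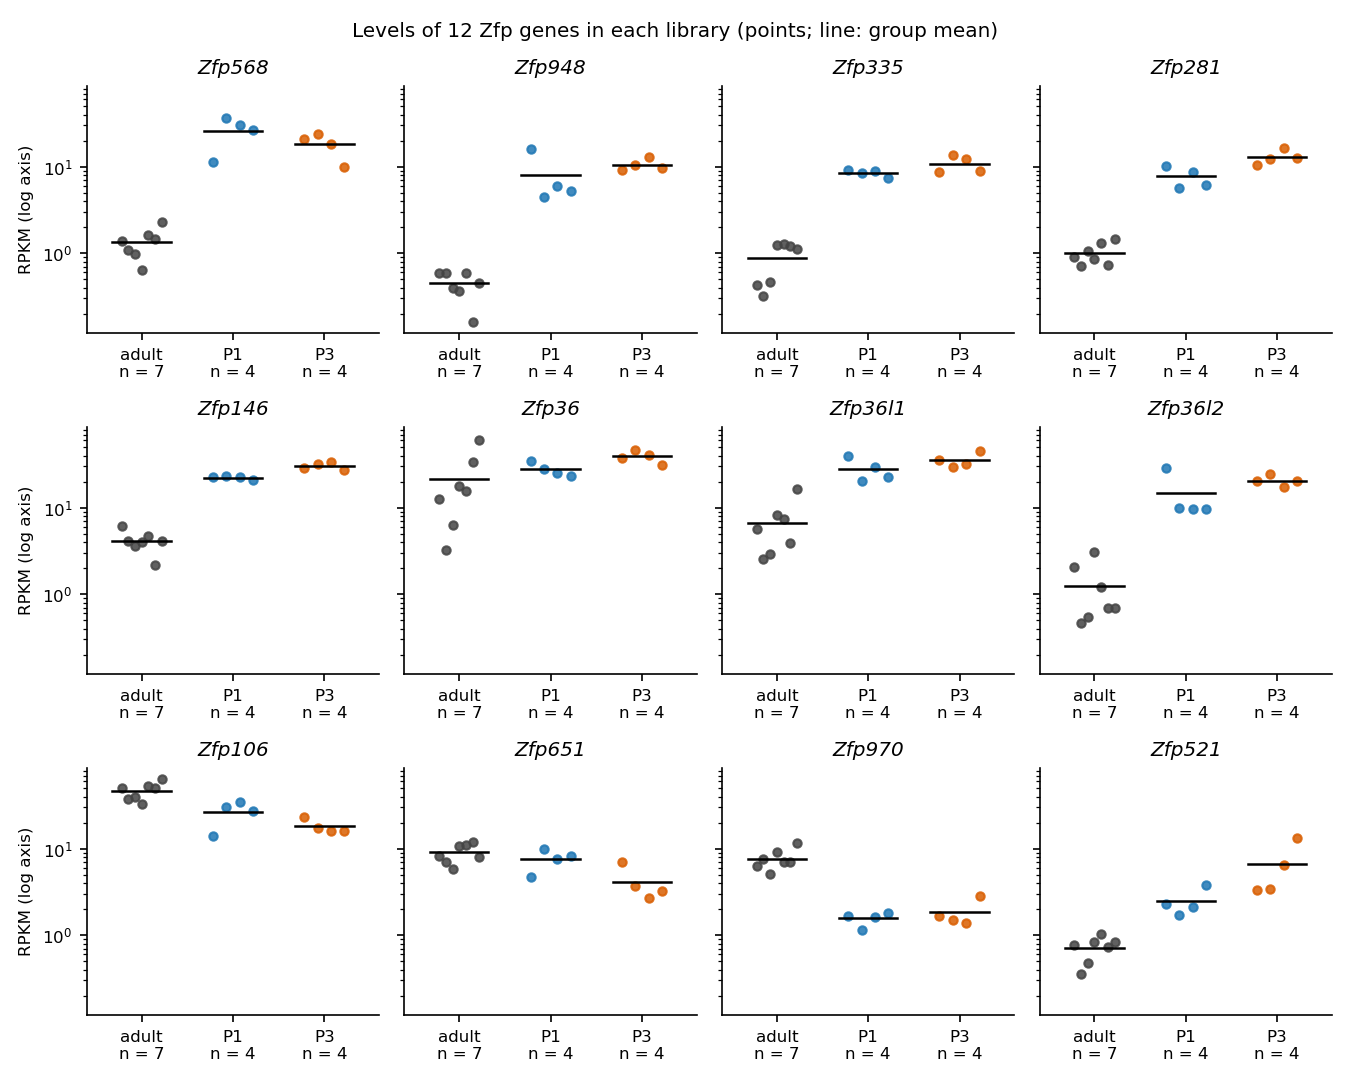
RPKM (log axis) of 12 Zfp genes in the 7 adult, 4 P1 and 4 P3 libraries, each point a library and each line a group mean. Zfp568, Zfp948, Zfp335, Zfp281, Zfp146 and Zfp36l2 are higher in all neonatal libraries than in any adult one, Zfp970 is lower in all of them, and Zfp36 overlaps because its adult values run from 3.22 to 60.8.

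Compared with adults, 143 of the 226 tested members were higher at P1 and 1 was lower, where 62.7% of all 9389 tested genes were higher and 4.32% lower. The members' share of higher calls was 63.3%, near that background. At P3 158 members were higher (69.9%) and 3 lower, where 62.7% of all tested genes were higher and 9.16% lower. A call needed a Benjamini-Hochberg adjusted p under 0.05 over all tested genes in limma and a log2 difference of at least 1. Tested genes had at least 1 RPKM in at least 4 libraries, a bar that a member could pass through its neonatal libraries alone, and 29 members were not tested. Over all 255 members the median difference was 1.10 at P1 and 1.26 at P3, against 1.32 and 1.41 over all genes, with 238 of the 255 above 0 in each comparison. Most genes of the table lay above 0 as well. The 25th percentile over all genes was 0.531 at P1 and 0.361 at P3, against 0.685 and 0.684 over members.

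The scale matters for these directions, because the median gene of the table itself lies well above 0. After quantile normalization, which gives every library the same distribution, the median member moved to -0.014 at P1 and 0.25 at P3. The calls then split into 25 higher and 19 lower at P1, where 18.1% of all genes were higher and 18.1% lower, and into 40 higher and 17 lower at P3, where 25.6% were higher and 23.2% lower. Of the 143 members higher at P1, 25 were also called higher after quantile normalization, 20 after median-of-ratios scaling and 18 after both. Of the 158 higher at P3 these numbers were 40, 38 and 36, while the member lower at P1 and the 3 lower at P3 were called lower under both. The adults also differed in the size of 1 read step. It was 0.948 to 1.07 relative units in adult replicates 1 to 3 and 0.612 to 0.626 in replicates 5 to 7. Replicate 4 stood alone at 1.67, with the fewest recovered member reads, 8431. Against replicates 1 to 4 together, 152 members were higher and 1 lower at P1 and 164 and 2 at P3. Against replicates 5 to 7 the counts were 127 and 2 at P1 and 146 and 3 at P3.

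**Figure D2:**
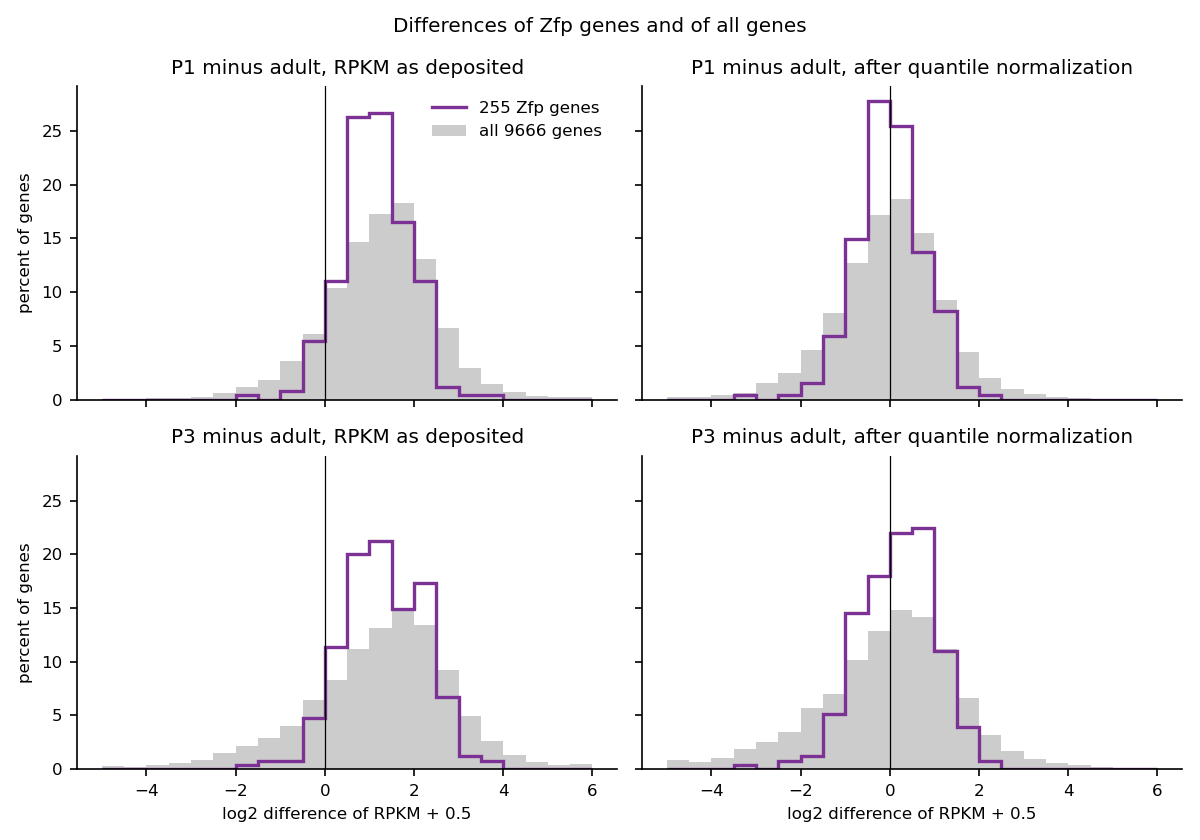
Percent of genes in each bin of the log2 difference from adult, for the 255 Zfp genes (line) and all 9666 genes (grey bars), as deposited and after quantile normalization, with values beyond the axis in the outermost bins. As deposited both distributions sit to the right of 0, with member medians of 1.10 and 1.26, and the members spread less widely than all genes.

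The median KRAB gene was lower in level and in difference than the median C2H2 gene without KRAB. The median KRAB gene had 0.573 RPKM in adults, 1.70 at P1 and 2.0 at P3, and the median gene without KRAB 1.17, 4.60 and 5.26 RPKM. Of 110 tested KRAB genes 56 were higher and 1 lower at P1, and 67 higher and 1 lower at P3, with median differences over all 137 of 0.84 and 0.95. These higher shares were 50.9% and 60.9%, where 62.7% of all tested genes were higher at each age and 4.32% and 9.16% lower. Of 108 tested genes without KRAB 83 were higher and none lower at P1 (limma; 2 were lower at an unadjusted p under 0.05), and 84 higher and 2 lower at P3, with medians over all 110 of 1.44 and 1.74. Their higher shares were 76.85% and 77.78%. With a pseudocount of 0.1 in place of 0.5, which compresses low genes less, the medians were 1.18 and 1.30 for the KRAB class and 1.78 and 2.17 for the other. After quantile normalization they were -0.17 and 0.04 for the KRAB class and 0.22 and 0.52 for the other, and after median-of-ratios scaling -0.14 and -0.11 against 0.27 and 0.52, so that the sign of the KRAB median depends on the scale.

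Level alone separates the classes in part, so they were also read within bins of mean RPKM over all libraries. In the bin from 2 to 5 RPKM, 18 of 31 KRAB genes and 47 of 54 genes without KRAB were higher at P1, with median differences of 1.22 and 1.64, against 1.30 over the 2362 genes of that bin. At P3 the same counts were 18 and 47, with medians of 1.41 and 2.04 against 1.5. At each age 58.1% of these KRAB genes and 87% of those without KRAB were higher. Of all tested genes of this bin 62.5% were higher at P1 and 64.6% at P3. Below 2 RPKM the P1 medians were 0.74 for 99 KRAB genes and 0.96 for 24 genes without KRAB, against 0.68 over all 1442 genes of the bin. There 34 of 72 tested KRAB genes and 12 of 22 without KRAB were higher at P1, and 43 and 12 at P3. Of all tested genes of that bin 39.8% were higher at P1 and 45.3% at P3. At 5 RPKM and above, 7 KRAB genes had a P1 median of 1.31 and 32 genes without KRAB 1.64, against 1.59 over all 5862. Of these KRAB genes and genes without KRAB 4 and 24 were higher at P1, and 6 and 25 at P3. Of all tested genes of that bin 67.3% were higher at P1 and 65.5% at P3. The share called higher at P1 was smaller in the KRAB class in every bin. It was 47.2% against 54.5% below 2 RPKM, and 57.1% against 75% at 5 RPKM and above. At P3 it was larger in the KRAB class below 2 RPKM (59.7% against 54.5%) and at 5 RPKM and above (85.7% against 78.1%), and smaller in the bin between. The KRAB medians at P3 were smaller there too, at 0.862 against 1.06 below 2 RPKM and 1.615 against 1.942 at 5 RPKM and above. The difference between the classes was not tested.

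**Figure D3:**
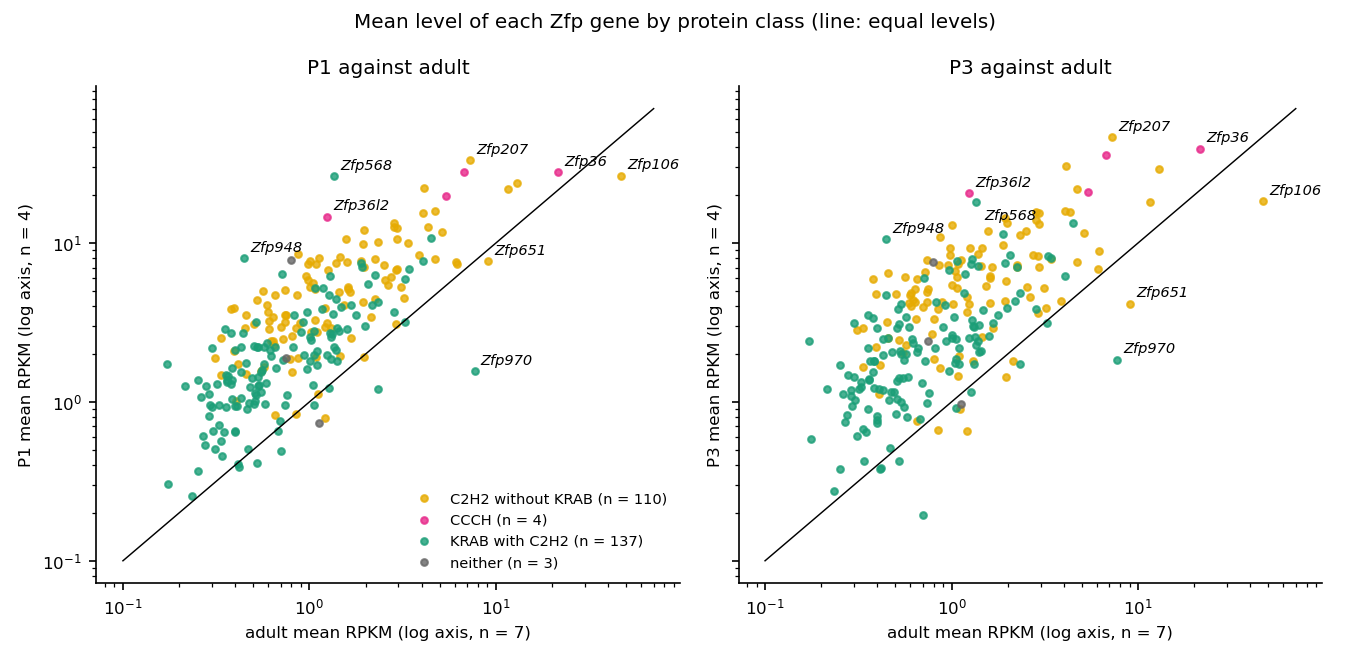
Mean RPKM in adults (horizontal log axis, n = 7) against P1 or P3 (vertical log axis, n = 4) for the 254 Zfp genes with a protein class, with the line of equal levels. Most points lie above the line, KRAB genes crowd the low end, and Zfp970, Zfp106 and Zfp651 lie below the line in both panels.

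Among KRAB genes with a known target, Zfp568 rose most. Zfp568 silences a placental transcript of the growth factor gene Igf2 and is needed for gastrulation. Its level was 0.643, 1.39 and 2.30 RPKM at the lowest, median and highest of the 7 adults, 11.4, 36.3, 30.3 and 26.8 RPKM in the P1 libraries and 21.02, 23.7, 18.3 and 9.93 RPKM in the P3 libraries. Each neonatal library lay above every adult one. The difference from adult was 3.78 ± 0.30 (SE) at P1 (limma adjusted p = 2.8e-09) and 3.32 ± 0.30 at P3 (limma adjusted p = 7.8e-09), and it stayed at 2.46 and 1.89 after quantile normalization. P1 replicate 1, the library with the high fibroblast sum, had the lowest P1 value of Zfp568, and without it the P1 difference was 4.13.

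Of the 9 listed KRAB genes that guard imprints or silence retroelements, 6 were in the table and 5 were tested, and 3 were higher at P1 and at P3 with none lower (limma; at an unadjusted p under 0.05, none was lower either). That share of 60% is near the 62.7% of all tested genes. The median of the 6 was 0.95 and 1.07, and -0.23 and -0.11 after quantile normalization. Besides Zfp568 these were Zfp445 and Zfp932. Zfp445, which keeps methylation at imprinted loci together with Zfp57, averaged 4.47 RPKM ± 3.09 (SD, n = 7) in adults, 10.8 ± 2.9 (SD, n = 4) at P1 and 13.3 ± 3.1 (SD, n = 4) at P3. Adult replicate 7 alone, at 11.3 RPKM, overlapped the neonatal range. Its differences of 1.31 and 1.61 became -0.11 and 0.11 after quantile normalization, about the shift of the median gene. Zfp932, a retroelement repressor, was at 0.571, 1.72 and 1.99 RPKM in adults, P1 and P3, with differences of 1.06 and 1.22, and its P1 call was lost without adult replicate 6 or P1 replicate 4. Zfp809, which silences murine leukaemia proviruses, missed the size threshold, with differences of 0.85 and 0.92, and was called higher at P3 without adult replicate 6 or 7 or P3 replicate 1, with 1.07 without adult replicate 7.

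Zfp948 was the KRAB gene with the next largest rise at P1 and the largest at P3. It had 0.161, 0.449 and 0.591 RPKM at the lowest, median and highest of the adults, 16.2, 4.46, 5.97 and 5.30 RPKM in the P1 libraries and 9.09, 10.5, 13.1 and 9.73 RPKM in the P3 libraries. All neonatal libraries lay above the adults, and P1 replicate 1 was again apart, this time as the highest. The difference was 3.00 ± 0.26 (SE) at P1 (limma adjusted p = 7.8e-09) and 3.56 ± 0.26 at P3 (limma adjusted p = 5.5e-10), and 2.61 at P1 without replicate 1. Zfp954, a further KRAB gene, rose from 0.716 RPKM in adults to 6.41 at P1 and 6.04 at P3, with differences of 2.52 and 2.39.

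The only member called lower in both comparisons was the KRAB gene Zfp970. Its level was 5.08, 7.03 and 11.5 RPKM at the lowest, median and highest of the adults, 1.65, 1.14, 1.64 and 1.81 RPKM in the P1 libraries and 1.65, 1.495, 1.37 and 2.84 RPKM in the P3 libraries. No neonatal library reached an adult one. The difference was -1.96 ± 0.21 (SE) at P1 (limma adjusted p = 1.1e-07) and -1.81 ± 0.21 at P3 (limma adjusted p = 2.5e-07), and it grew to -3.28 and -3.06 after quantile normalization. KRAB genes often stand in arrays of near-identical copies, and values of such genes are uncertain, since the sources used here do not say how reads were shared among copies.

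The tested genes of the list that carries out KRAB repression were higher as deposited. Of 23 partners listed 20 were in the table and tested, and all 20 were higher at P1 and at P3, against 62.7% of all tested genes, with medians of 1.79 and 2.24 against 1.32 and 1.41 over all genes. Trim28, the scaffold that KRAB boxes bind, rose from 5.79 RPKM ± 1.95 (SD, n = 7) in adults to 57.2 ± 10.6 (SD, n = 4) at P1 and 71.9 ± 9.4 (SD, n = 4) at P3, by 3.25 and 3.58. The deacetylase Hdac1 rose by 2.96 and 3.41 and the maintenance methyltransferase Dnmt1 by 3.06 and 3.19. After quantile normalization 6 of the 20 were called higher in each comparison, against 18.1% and 25.6% of all genes, and Trim28 remained at 1.85 and 2.32.

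Some KRAB genes stood in arrays. Of the 254 placed members 58 lay on chromosome 7 and 38 on chromosome 17, and 6 clusters with at least 6 members and gaps of at most 250 kb held 60 members, of which 49 were of the 137 KRAB genes. In the cluster at chr7:29768552-30169750 (mm10), 11 members stood around Zfp568 and were described after their values had been seen. Zfp568 at 3.78 lay beside Zfp14 at 0.05 and Zfp74 at 1.11 at P1, and the cluster ran from Zfp30 at -0.07 to Zfp568, so that neighbours did not share 1 size of difference. Zfp30 had 0.510 to 1.5 RPKM in adults, 0.694 to 1.09 in P1 and 0.638 to 1.09 in P3. These ranges overlap. Zfp146, a small protein made almost wholly of fingers, at the far end of the cluster, had 2.20, 4.09 and 6.12 RPKM at the lowest, median and highest of the adults, 22.5, 23.1, 22.6 and 20.8 RPKM at P1 and 28.9, 31.8, 34.2 and 27.1 RPKM at P3. Its neonatal values were far above the adult ones, with differences of 2.35 ± 0.20 (SE) at P1 (limma adjusted p = 4.5e-09) and 2.79 ± 0.20 at P3 (limma adjusted p = 3.3e-10).

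**Figure D4:**
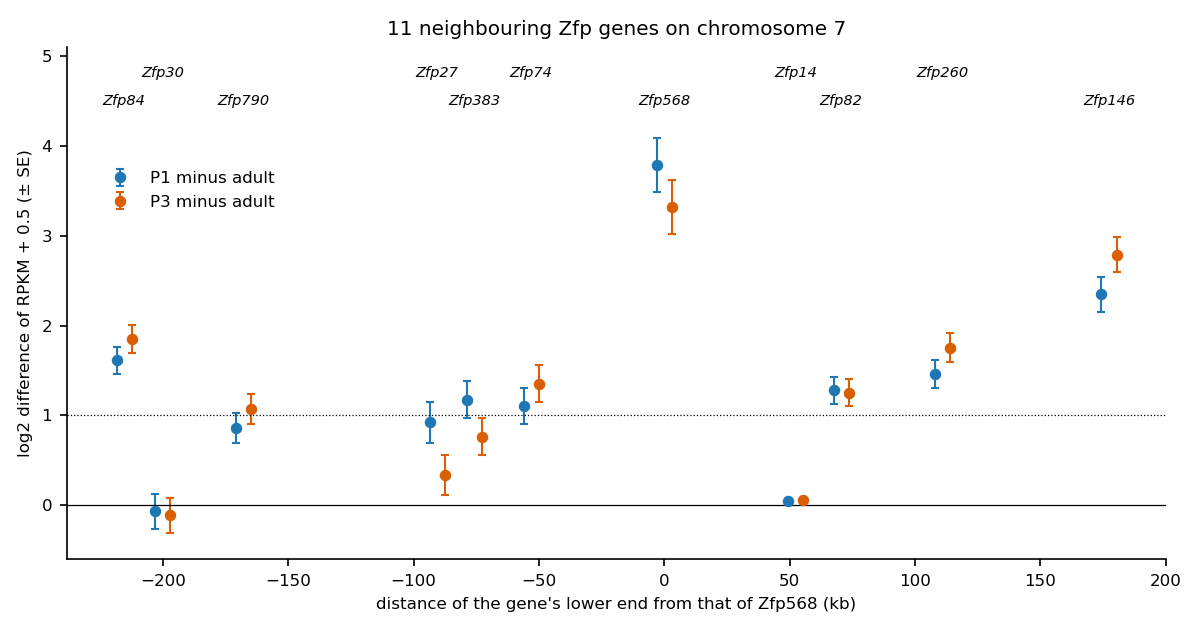
Log2 difference from adult (± SE from limma) of 11 neighbouring Zfp genes on chromosome 7 against the distance of each gene's lower end from that of Zfp568 in kb, with P1 and P3 points drawn slightly to either side. The values run from -0.11 to 3.78, and Zfp14 has no error bar because it was not tested.

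In the cluster at chr17:21383748-22456689, 13 KRAB genes ranged from -0.03 to 3.00 at P1 around a median of 0.76, and 4 were called higher. In the cluster at chr13:67424549-67827002, 10 KRAB genes ranged from 0.28 to 1.56 around 0.96, with 5 called higher at P1 and 8 at P3. Over all 6 clusters, 49 KRAB genes had median differences of 0.81 at P1 and 1.03 at P3, and the 88 KRAB genes outside them 0.85 and 0.94. These cluster sizes count untested genes too. Of the 49 KRAB genes 39 were tested, with 20 called higher at P1 and 25 at P3. Of the 88 outside, 71 were tested, with 36 and 42 higher. Over all tested genes 62.7% were higher at each age, and over tested KRAB genes 50.9% and 60.9%.

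All 3 TIS11 genes of the table stood among the most abundant members in neonatal cells, but they did not differ from adults alike. Zfp36l2 had 0.460, 0.693 and 3.07 RPKM at the lowest, median and highest of the adults, 29.1, 9.96, 9.79 and 9.60 RPKM in the P1 libraries and 20.5, 24.5, 17.3 and 20.2 RPKM in the P3 libraries. Every neonatal value lay above the adults, and P1 replicate 1 stood far above the other P1 libraries. The difference was 3.11 ± 0.35 (SE) at P1 (limma adjusted p = 1.8e-07), 2.72 without P1 replicate 1, and 3.75 ± 0.35 at P3 (limma adjusted p = 1.1e-08). It was 1.84 and 2.45 after quantile normalization.

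Zfp36l1 had 2.54, 5.69 and 16.4 RPKM at the lowest, median and highest of the adults, 39.95, 20.3, 29.3 and 22.9 RPKM at P1 and 35.3, 30.0, 31.8 and 45.3 RPKM at P3. The groups did not overlap, although adult replicate 7 came near the lowest P1 library. The differences were 2.17 ± 0.36 (SE) at P1 (limma adjusted p = 1.8e-05) and 2.54 ± 0.36 at P3 (limma adjusted p = 2.5e-06). Zfp36, the founding member tristetraprolin and an immediate-early gene, had an adult range that spanned both neonatal ranges. Its adult values were 12.7, 3.22, 6.36, 17.9, 15.5, 34.0 and 60.8 RPKM in replicates 1 to 7, and its neonatal values 23.5 to 34.8 RPKM at P1 and 31.3 to 46.9 RPKM at P3. The difference of 0.86 ± 0.51 (SE) at P1 was not called (limma adjusted p = 0.13), and without adult replicate 7 it was called, at 1.19. The difference of 1.35 ± 0.51 at P3 was called (limma adjusted p = 0.02), but it was lost without P3 replicate 2 and the exact permutation test gave 0.0909. Against adult replicates 1 to 4 Zfp36 was higher by 1.66 and 2.15, and against replicates 5 to 7 the differences were -0.21 and 0.28.

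The deadenylation and decapping genes that act downstream of TIS11 proteins were mostly higher as deposited. Of 22 listed 20 were tested, 17 higher at P1 and 19 at P3 with none lower (limma; at an unadjusted p under 0.05, none was lower either), with medians of 1.59 and 1.88, where 62.7% of all tested genes were higher at each age. The deadenylase subunit Cnot6 rose from 1.44 RPKM to 13.7 at P1 and 22.0 at P3, by 2.89 and 3.54. The decapping factors Dcp1a and Edc3 rose by 2.49 and 2.03 at P1 and by 2.85 and 2.65 at P3. After quantile normalization 2 and 4 of the 20 were called higher and 0 and 1 lower, with the higher share below the 18.1% and 25.6% of all genes.

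Most members that act on RNA and ribosomes were higher as deposited. Of the 9 members in the table, 8 were higher and none lower at P1 (limma; 1 was lower at an unadjusted p under 0.05), and 7 were higher, 1 lower and 1 not called at P3, where 62.7% of all tested genes were higher at each age. After quantile normalization 1 was higher and 1 lower at P1, and 3 were higher and 1 lower at P3, against 18.1% and 25.6% of all genes higher, with medians of 0.52 and 0.56. Zfp207 had 5.46, 7.14 and 9.79 RPKM at the lowest, median and highest of the adults, 43.4, 30.1, 28.1 and 31.3 RPKM at P1 and 52.0, 48.1, 49.6 and 35.5 RPKM at P3. The groups lay far apart, with differences of 2.13 ± 0.19 (SE) at P1 (limma adjusted p = 9e-09) and 2.61 ± 0.19 at P3 (limma adjusted p = 4.5e-10). Zfp598, the ligase that marks collided ribosomes, rose from 1.97 RPKM to 12.0 and 13.4. Zfp593, a factor of large ribosomal subunit assembly, rose from 0.650 RPKM to 4.71 and 5.97. Zfp326, which links polymerase elongation to splicing, rose from 1.46 RPKM to 8.20 and 9.28.

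The member of this list called lower was Zfp106, the most abundant Zfp transcript of adult cells. It had 32.8, 50.2 and 63.7 RPKM at the lowest, median and highest of the adults, 14.0, 30.2, 34.9 and 27.1 RPKM in the P1 libraries and 23.3, 17.4, 16.1 and 16.2 RPKM in the P3 libraries. P1 replicate 3, at 34.9, overlapped the adults and no P3 library did. The difference was -0.85 ± 0.24 (SE) at P1, under the size threshold (limma adjusted p = 0.0033), and -1.32 ± 0.24 at P3 (limma adjusted p = 5.1e-05). After quantile normalization it was -1.92 and -2.49. Without P1 replicate 3 the P1 difference was called, at -1.0. The lowest P1 value came from replicate 1, without which the P1 difference was -0.57, and the highest P3 value from replicate 1, the P3 library with the highest cardiomyocyte sum. The second gene of the list of members reported in heart, Zfp260, reported as a partner of Gata4 in alpha-adrenergic signalling, rose from 4.29 RPKM ± 0.70 (SD, n = 7) to 12.7 ± 1.7 (SD, n = 4) and 15.5 ± 0.7 (SD, n = 4). Its differences of 1.46 and 1.75 shrank to 0.04 and 0.26 after quantile normalization, about the shift of the median gene.

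Zfp651 was the third member called lower at P3. It had 5.90, 8.34 and 12.0 RPKM at the lowest, median and highest of the adults, 4.72, 10.03, 7.63 and 8.22 RPKM in the P1 libraries and 6.98, 3.71, 2.69 and 3.21 RPKM in the P3 libraries. The P1 libraries overlapped the adults, and of the P3 libraries only replicate 1 did. The difference was -0.24 ± 0.25 (SE) at P1 (limma adjusted p = 0.39) and -1.08 ± 0.25 at P3 (limma adjusted p = 0.00061). The P3 call was lost without P3 replicate 3, at -0.93, and after quantile normalization the differences were -1.58 and -2.44. Zfp106 and Zfp651 shared with the cardiomyocyte genes a highest P3 value in replicate 1 and a lowest P1 value in replicate 1, and the part of this in the differences was not tested.

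Most chromatin and corepressor members were higher as deposited. Of 19 tested 16 were higher at P1 and 17 at P3, against 62.7% of all tested genes in each comparison, and none was lower in either comparison (limma; at an unadjusted p under 0.05 all 19 were higher), with medians of 1.72 and 1.94. After quantile normalization 4 and 5 of the 19 were called higher, against 18.1% and 25.6% of all genes, and the medians were 0.36 and 0.71. Zfp335, a subunit of histone H3 methyltransferase complexes, had 0.316, 1.12 and 1.27 RPKM at the lowest, median and highest of the adults, 9.20, 8.55, 8.95 and 7.40 RPKM at P1 and 8.77, 13.6, 12.2 and 8.86 RPKM at P3. No neonatal value lay below 7.40 RPKM and no adult one above 1.27. The difference was 2.79 ± 0.24 (SE) at P1 (limma adjusted p = 6e-09) and 3.10 ± 0.24 at P3 (limma adjusted p = 9.3e-10). Zfp516, which drives thermogenic genes in brown fat, rose from 0.395 RPKM to 3.92 and 4.76, and Zfp592, of the Zmynd8 corepressor module, from 1.25 RPKM to 6.78 and 9.31. Zfp703, a corepressor that acts with Groucho proteins, had 21.2, 3.01, 4.15 and 2.69 RPKM in the P1 libraries. Its P1 difference of 2.21 fell to 1.57 without replicate 1.

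Members known to bind promoters were higher in 7 of 8 cases at both ages, where 62.7% of all tested genes were higher, with medians of 2.08 and 2.31, and none was lower (limma; at an unadjusted p under 0.05, none was lower either). Zfp281, a GC-rich promoter binder that acts in pluripotent cells, had 0.701, 0.907 and 1.47 RPKM at the lowest, median and highest of the adults, 10.3, 5.68, 8.78 and 6.18 RPKM at P1 and 10.4, 12.4, 16.6 and 12.6 RPKM at P3. The 3 groups did not overlap with one another. The difference from adult was 2.44 ± 0.20 (SE) at P1 (limma adjusted p = 4.2e-09) and 3.17 ± 0.20 at P3 (limma adjusted p = 1.2e-10). Zfp143, which binds promoters of small nuclear RNA genes and many others, rose from 1.09 RPKM to 7.42 and 7.33. Zfp384 rose from 1.93 RPKM to 9.83 and 14.3, and Zfp263 from 0.959 RPKM to 6.19 and 7.25. After quantile normalization 2 of the 8 were called higher at P1 and 3 higher and 1 lower at P3, against 18.1% and 25.6% of all genes higher.

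Of the signalling members, Zfp318 was called higher at both ages and Zfp91 at P3. Zfp91, which acts on the non-canonical NF-kappa-B kinase, rose by 1.17 at P3 and had a P1 difference of 0.88, and after quantile normalization its differences were -0.39 and -0.12. Zfp318 rose by 1.02 at P1 and 1.30 at P3, and the P1 call was lost without adult replicate 2, 3 or 4 or without P1 replicate 3 or 4. Zfp395, induced by hypoxia, had differences of 0.63 and 0.30 that were not called. Further large rises came from genes with little known function. Zfp511 rose from 1.56 RPKM to 10.7 at P1 and 12.0 at P3, by 2.48 and 2.64, and Zfp275 from 0.458 RPKM to 3.54 and 6.43, by 2.08 and 2.86.

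Few members were called between P1 and P3. Of 226 tested members 1 was higher at P3 and none lower, where 1.4% of all tested genes were higher and 5.31% lower (limma). At an unadjusted p under 0.05, 42 members were higher at P3 and 6 lower, where 1266 of the 9389 tested genes were higher and 1320 lower. The median over all 255 was 0.18, against 0.08 over all genes, and 188 members lay above 0. The 25th percentile was -0.012 over members and -0.286 over all genes. The member called was Zfp521, a partner of the NuRD complex that holds precursor cells of blood and fat in an immature state. It had 0.352, 0.777 and 1.02 RPKM at the lowest, median and highest of the adults, 2.30, 1.70, 2.14 and 3.78 RPKM at P1 and 3.36, 3.42, 6.40 and 13.2 RPKM at P3. The P1 and P3 libraries overlapped, and the rise leaned on P3 replicate 4. The difference between the ages was 1.09 ± 0.33 (SE), with a limma adjusted p of 0.045, and 0.70 without that library (limma adjusted p = 0.14). Leaving out single libraries ended the call for 10 of the 15, with limma adjusted p from 0.052 to 0.16. The exact permutation test gave 0.0857, where 4 libraries against 4 allow no p below 0.0286. Against adults, Zfp521 was higher by 1.27 at P1 and 2.36 at P3.

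Zfp281 had a difference between P3 and P1 of 0.73 ± 0.23 (SE) and a limma adjusted p of 0.052, and all 4 P3 values lay above all 4 P1 values. Zfp275 differed by 0.78 (limma adjusted p = 0.035), under the size threshold. In the other direction Zfp651 differed by -0.85 (limma adjusted p = 0.066), and Zfp568 by -0.46 (limma adjusted p = 0.39). Without P1 replicate 1 Zfp651 was called lower at P3, at -1.05, and Zfp703 higher, at 1.09. Zfp651 was also called without P3 replicate 1, at -1.10.

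As for presence in the table, it held 255 of 397 protein-coding RefSeq genes with a Zfp symbol (64.2%), and 9223 of 21900 protein-coding genes in all (42.1%). Other families with zinc fingers varied in their counts, where 62.7% of all tested genes were higher at each age. Of 34 tested Zbtb genes, which join a BTB domain to C2H2 fingers, 28 were higher at P1 and 29 at P3, and of 14 tested Zkscan and Zscan genes, which carry a SCAN domain, 11 were higher at each age. Of 15 tested Zc3h genes, with CCCH fingers, 13 were higher at each age, with medians of 1.99 and 2.17. Of 18 tested Zdhhc genes 14 were higher at each age, and of 7 Zfyve genes 4. Of 6 Zfand genes 3 were higher at P1, and 4 were higher and 1 lower at P3. Of 9 Zmym and Zmynd genes 6 were higher at P1 and 5 at P3. These families were not tested against the Zfp genes.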

How the data were processed

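RNA-seq of 15 libraries of ventricular cardiomyocytes was read from 1 table of RPKM values deposited by the authors, with 1 column per library, and 0 columns were left unused. Per the submitters' processing notes the tools were HISAT2 and Partek 6.6 with the mouse build mm10. The sources used here do not give the annotation, the strand of counting or the handling of multiply mapped reads, so overlapping or antisense genes and near-identical KRAB copies are uncertain. No value is at or under 0.1 RPKM (the lowest is 0.1001), so genes below that in any library are not analysed here.

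The 9389 of 9666 genes that reached 1 RPKM in 4 or more libraries were fitted as log2(RPKM + 0.5) by limma 3.58.1 (R 4.3.3) (1 coefficient per group, eBayes with trend), with Benjamini-Hochberg adjustment over all tested genes and two-sided tests. Named members were also compared by exact two-sided permutation tests. In simulated data of 9389 genes, 100 log2 changes of 1.5 were planted per comparison, and 89% were called between P1 and adult, 90% between P3 and adult and 75% between P3 and P1. Of 9189 genes left alone, 3, 6 and 6 were called. The simulated libraries held no shift of the median gene, unlike the neonatal and adult libraries. These rates therefore do not cover calls that depend on the scaling of libraries.

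Whole reads were recovered from the steps of the RPKM values for 84.6% of genes at a relative tolerance of 3e-05 and for 0 of 967 genes after a random change of up to 1 percent. They were used only to describe depth, and for some members they may be too high, since most of their numbers were multiples of a larger step. Members were the symbols matching Zfp and a digit. Classes came from the longest GENCODE coding sequence, and the KRAB pattern first written found only 3 members, so the identity rule replaced it after the data were seen. The members and gene lists were chosen with earlier results of these data known. Named were the 6 largest rises and falls of each comparison among called members whose groups do not overlap and whose higher group averages at least 2 RPKM, the 5 highest members of each group, and up to 4 members of each functional list and 3 of each partner list by absolute difference. None of the 8 immune and 8 erythroid marker genes was in the table. Alternatives were other pseudocounts, filters and scalings, limma without trend, subsets of the adults, a replicate block and each library left out.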

Additional observations from a re-analysis of the deposited data

Results flagged for a closer look

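For 33 named members each group of at least 4 libraries was searched for a single library far from the rest by Dixon's criterion. Of these 99 searches chance alone flags about 1 in 20, and the share flagged was no larger than that. Zfp36l2 in P1 replicate 1 was at 29.13 RPKM, where the other P1 libraries were at 9.60 to 9.96. Zfp593 in the same library was at 5.199 RPKM, the highest of its group, where the other P1 libraries were at 4.499 to 4.608. This gap was much smaller than that of Zfp36l2, and the other P1 values of Zfp593 lay close together. P1 replicate 1 also had the highest fibroblast marker sum of P1, 1330 RPKM, and the part of this in the values was not tested. Zfp395 in P1 replicate 2 was at 1.458 RPKM, below the other P1 libraries. Zfp445 in adult replicate 7 was at 11.29 RPKM, where the other adults were at 2.35 to 4.41. Adult replicate 7 also had the highest Zfp36, at 60.8 RPKM, and the lowest fibroblast marker sum, 0.917 RPKM.

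Zfp521 differed more from adult at P3 than at P1, by 1.090 on the log2 scale. Both comparisons share the adults, so this value is the difference between P3 and P1 itself.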

How the results depend on the processing

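Of the settings tried, the scaling of libraries changed the Zfp results most, because the median gene itself differs between ages. With quantile normalization 25 members were higher and 19 lower at P1 (median -0.014) and 40 and 17 at P3 (0.25), and with median-of-ratios scaling 20 and 15 at P1 (-0.007) and 38 and 17 at P3 (0.16). With equal RPKM sums 73 and 3 were called at P1 (0.60) and the P3 median was 0.89, and with sums over all but the 100 highest genes 53 and 6 at P1 (0.38) and 87 and 6 at P3 (0.61). A pseudocount of 0.1 gave medians of 1.41 and 1.72, and a pseudocount of 1 gave 0.85 and 1.00. Against adult replicates 5 to 7, 2 members were lower at P1.

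Some named members changed sign. At P1 with quantile, median-of-ratios and all-but-100 scaling, Zfp36 was at -0.40, -0.64 and -0.12, Zfp91 at -0.39, -0.63 and -0.11, Zfp706 at -0.39, -0.60 and -0.08, Zfp809 at -0.60, -0.46 and -0.004, and Zfp395 at -0.65, -0.49 and -0.10. Zfp445 was at -0.11 and -0.12 with quantile and median-of-ratios scaling, and Zfp36 at -0.21 against adult replicates 5 to 7. At P3 with quantile and median-of-ratios scaling, Zfp91 was at -0.12 and -0.42, Zfp706 at -0.73 and -0.95, Zfp809 at -0.55 and -0.45, and Zfp395 at -0.84 and -0.83. Zfp36 was at -0.24 with median-of-ratios scaling. With all-but-100 scaling Zfp706 was at -0.34 and Zfp395 at -0.39, and with equal sums Zfp395 was at -0.085. Between P3 and P1, Zfp143 was at 0.091 with equal sums. The cause of these changes was not tested.

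The single higher call between P3 and P1 became 0 with a pseudocount of 0.1 or 1, with median-of-ratios scaling and with all-but-100 scaling. With 1 library left out, higher calls ran from 134 to 153 at P1, from 150 to 164 at P3 and from 0 to 2 between P3 and P1, and lower calls from 1 to 2, from 2 to 3 and from 0 to 2. Between P3 and P1 the ranges crossed 0 for Zfp143 (-0.113 to 0.088), Zfp809 (-0.01 to 0.17), Zfp954 (-0.308 to 0.053) and Zfp970 (-0.028 to 0.251). Other filters on low values, limma without trend and stricter KRAB minimums moved no count of calls by over 1.5 times.

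Correlations of same-numbered deviations over the genes ran from -0.51 to 0.37, and replicate numbers were not taken as pairs. These values were not set beside those of differently numbered libraries, so they cannot show whether libraries shared a preparation. With the number as a replicate block the calls were 152 higher and 1 lower at P1, 164 and 2 at P3, and 0 between P3 and P1. Low reads limit precision for the 61 members with under 10 recovered reads in some library, and others may have been missed.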

Other observations

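Libraries of 1 group agreed less among adults than among neonates over the 255 Zfp genes. Spearman correlations between library pairs, given across genes that are not independent replicates, ran from 0.751 to 0.93 in adults with a median of 0.864, from 0.915 to 0.956 in P1 and from 0.91 to 0.965 in P3. Adult libraries also held fewer recovered member reads, 8431 to 33923 against 45734 to 52612 in P1 and 51403 to 70874 in P3. In all groups these sums include members whose recovered numbers may be too high.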
